A study of Mus musculus with 4 samples.

Results

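The 10 genes described here encode serum proteins that the liver and the yolk sac of a mouse fetus make: Afp, Alb, Apoa1, Apoa2, Apoa4, Apob, Ttr, Ahsg, Fgb and Rbp4. They were taken by gene symbol from 18193 genes measured in embryonic trachea, and all 10 had a value. Each gene was read from its probe set with the highest mean log2(signal + 16) over 4 arrays, and no minimum level was set. The genes were chosen by their signals on these same arrays, since single arrays stand out in them, and the probe sets by their mean level, so the pattern over the arrays is given as a description. The samples were tracheas collected at embryonic day 16 on a C57BL/6 background, 2 labelled a1H knockout and 2 labelled wild type, each on 1 Affymetrix array. a1H is taken as the alpha-1H subunit of a T-type calcium channel, encoded by Cacna1h, and the series text speaks of homozygous embryos. The labels give no allele, no promoter or Cre driver, and no statement on whether a sample was 1 embryo or a pool. P-values therefore cover the spread of these 2 arrays per genotype alone, and that spread may be technical.

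In the fetus the visceral endoderm of the yolk sac, and later the hepatocytes of the liver, secrete the carriers, apolipoproteins and clotting proteins of the blood. Alpha-fetoprotein and albumin bind fatty acids and other small ligands, apolipoproteins carry lipids in particles, and transthyretin and retinol-binding protein carry thyroid hormone and vitamin A. The trachea is not known as a main source of most of these proteins, although epithelium, mesenchyme or fat of other organs can transcribe some of them. In such bulk samples, fewer cells of a type and less RNA per cell cannot be told apart.

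The signals were MAS5 intensities, a summary of each probe set on a linear scale, and array medians were 320 to 426 in the labelled knockout and 416 to 459 in wild type. Cacna1h read 981 and 631 on the labelled knockout arrays, against 630 and 538 on the wild-type arrays, so it was not lower in the labelled knockout. Its probe set may lie outside the deleted part, which checks nothing, and every direction below rests on the labels. The median level of all probe sets was a signal of 397. By their mean, 11694 of 18193 genes lay at or above it, each gene being read from its brightest probe set. Of 17 markers of tracheal epithelium, cartilage and muscle, 16 lay at or above this level. Nkx2-1, a transcription factor of airway and thyroid epithelium, was the dim one, at 145 and 145 in the labelled knockout and 337 and 216 in wild type. The geometric mean of 9 spiked hybridisation controls was 4744 and 14007 on labelled knockout replicates 1 and 2, and 4787 and 11598 on wild-type replicates 1 and 2. The number of arrays limits the precision: exchanging 2 against 2 labels in an exact two-sided permutation test gives a p of 0.333 at best.

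The serum protein genes varied widely between arrays of the same genotype. Wild-type replicate 2 gave the highest signal for 7 of the 10 genes (Afp, Alb, Apoa1, Apoa4, Apob, Fgb and Rbp4), and labelled knockout replicate 2 gave it for Ttr, Apoa2 and Ahsg. Over all genes, wild-type replicate 2 was highest for 20.1% and labelled knockout replicate 2 for 27.3%. The number of members at or above the median level was 4 and 7 on labelled knockout replicates 1 and 2, and 1 and 8 on wild-type replicates 1 and 2. Of all 18193 genes, 11868 and 11507 lay there on the labelled knockout arrays, and 11845 and 11694 on the wild-type arrays. On wild-type replicate 1 the one member at that level was Rbp4. By their mean over the 4 arrays, 6 of the 10 genes passed that level, and Apoa2, Apob, Ahsg and Fgb did not, where 11694 of all 18193 genes did.

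**Figure D1:**
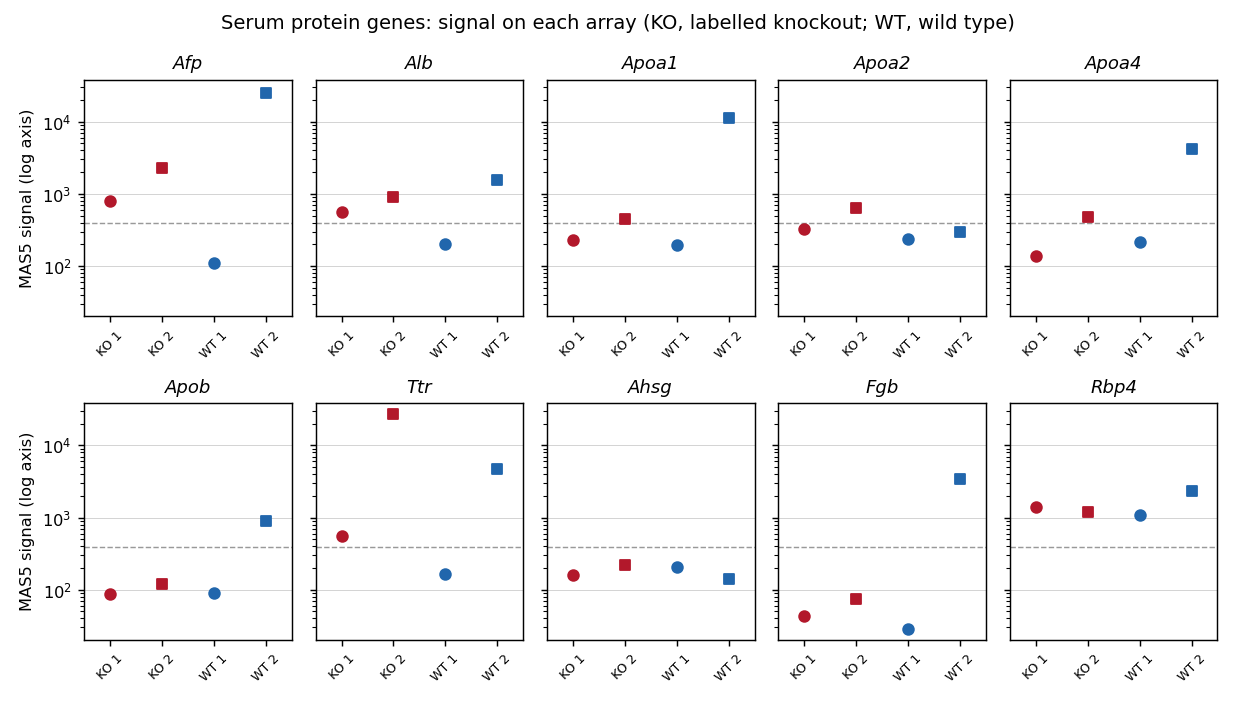
MAS5 signal (log axis) of each serum protein gene on the 4 arrays, labelled knockout (KO) in red and wild type (WT) in blue, circles for replicate 1 and squares for replicate 2; each point is 1 array and the dashed line is the median level of all probe sets, 397. Afp spans 110 to 24975 and Ttr 167 to 27074.5, while Ahsg stays between 142 and 219.

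Afp encodes alpha-fetoprotein, the main serum carrier of the fetus, made by yolk sac endoderm and fetal liver. It read 798 and 2282 on the labelled knockout arrays, and 110 and 24975 on the wild-type arrays. The wild-type arrays thus enclosed both labelled knockout arrays, and the gap between wild-type replicates 2 and 1 was 7.63 on the log2(signal + 16) scale, the third largest of 18193 genes. Probe sets 1416646_at and 1436879_x_at gave gaps of 8.23 and 6.45. The remaining pair of probe sets, 1436880_at and 1436881_x_at, was dim, reading at most 37.8 and 165 on any array, and both were highest on labelled knockout replicate 2.

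Alb encodes albumin, the carrier that takes over from alpha-fetoprotein in the serum after birth, and lies next to Afp in mouse gene order. It read 558 and 909 in the labelled knockout, and 201 and 1544.5 in wild type. The order of the arrays was that of Afp, with wild-type replicate 2 highest and wild-type replicate 1 lowest, over a smaller log2 range of 2.85, against 7.63 for Afp. Afm, the neighbouring gene of the albumin family that encodes afamin, a vitamin E carrier, stayed dim at 50.4 and 139 in the labelled knockout and 155 and 208 in wild type.

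The promoters of Afp, Alb and Fgb are shown because they hold the letters GTTAAT, the core of the site bound by HNF1, a transcription factor of liver and yolk sac endoderm. Each run is the 250 bases before the annotated start, from RefSeq on GRCm38.p6, written 5′ to 3′ on the strand of the gene, with GTTAAT or its reverse complement in capitals. The Afp stretch is chr5:90490464-90490713 (+ strand), that of Alb is chr5:90460620-90460869 (+ strand), and that of Fgb is chr3:83049864-83050113 (- strand).
Afp: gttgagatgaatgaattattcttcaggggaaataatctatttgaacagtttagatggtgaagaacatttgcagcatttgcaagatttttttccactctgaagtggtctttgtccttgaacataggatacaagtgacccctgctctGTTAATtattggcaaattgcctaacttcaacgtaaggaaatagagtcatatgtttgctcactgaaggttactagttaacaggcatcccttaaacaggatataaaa
Alb: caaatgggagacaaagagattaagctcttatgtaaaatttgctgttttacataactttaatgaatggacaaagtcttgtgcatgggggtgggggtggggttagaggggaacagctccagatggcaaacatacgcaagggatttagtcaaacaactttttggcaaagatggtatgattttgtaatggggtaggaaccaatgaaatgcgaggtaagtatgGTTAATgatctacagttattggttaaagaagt
Fgb: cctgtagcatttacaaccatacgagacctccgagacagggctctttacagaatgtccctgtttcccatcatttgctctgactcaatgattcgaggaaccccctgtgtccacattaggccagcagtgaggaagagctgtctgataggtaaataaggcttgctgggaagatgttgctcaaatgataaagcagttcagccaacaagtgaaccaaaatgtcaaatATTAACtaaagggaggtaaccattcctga
The match begins 105 bases before the start in Afp, 32 in Alb and, on the opposite strand, 29 in Fgb. Searched on both strands, GTTAAT was present in 3 of 11 promoters of the 9 members in the table, and in 6.43% of all 32851 promoters of this length. TGTTTAC was present in 2 (Apoa2 and Rbp4; 3.17% of all), TATAAA in 4 (Afp, Apoa2, Apob and Rbp4; 12.4% of all) and CAAAGTCC in 0 (1.2% of all). These motifs do not overlap one another in the members' windows, and a match is a description of letters only. Afp, Alb and Fgb all read highest on wild-type replicate 2, but so did Apoa1, Apoa4 and Apob, whose windows hold no GTTAAT.

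Among the apolipoproteins, the lipid-carrying proteins of the serum, Apoa1, Apoa4 and Apob stood out on wild-type replicate 2 and Apoa2 did not. Apoa1, the main protein of high-density lipoprotein, read 227 and 447 in the labelled knockout, and 197 and 11262.5 in wild type. Its 4 probe sets gave gaps of 5.73 to 7.40 on the log2(signal + 16) scale between wild-type replicates 2 and 1. Apoa4, an apolipoprotein of yolk sac and intestine that attaches to triglyceride-rich particles, read 140 and 480 in the labelled knockout, and 217 and 4194.5 in wild type. A second Apoa4 probe set, 1417761_at, read 17.0 and 239 in the labelled knockout, and 53.0 and 3173.7 in wild type. Labelled knockout replicate 2 came next after wild-type replicate 2 for both genes, at well under its signal.

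Apob, the structural protein of very-low-density and low-density lipoprotein, read 87.8 and 121 in the labelled knockout, and 90.5 and 905 in wild type. Wild-type replicate 2 was the one array above the median level, and the dimmer probe set 1457554_at was also highest there, at 243. Apoa2, the second protein of high-density lipoprotein, read 329 and 643 in the labelled knockout, and 238 and 297 in wild type. It was the one member whose genotypes did not overlap, with both labelled knockout arrays higher, a count to be read beside the 16.8% of all genes with this order. No member had both labelled knockout arrays lower, an order found in 19.1% of all genes.

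Apoa1 and Apoa4 flank Apoc3 in gene order, and Apoa5 follows Apoa4. Apoc3, an inhibitor of lipoprotein lipase, read 63.5 and 57.5 in the labelled knockout, and 91.1 and 245 in wild type. Apoa5, which promotes triglyceride breakdown, read 34.0 and 39.6 in the labelled knockout, and 69.8 and 77.0 in wild type. Apoc3 was thus highest on wild-type replicate 2 but dim, and Apoa5 was dim on every array, so the genes of this cluster did not all show the large gap.

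Fgb encodes the beta chain of fibrinogen, the precursor of the fibrin clot. It read 43.8 and 73.8 in the labelled knockout, and 28.4 and 3395.0 in wild type. The log2 gap of wild-type replicate 2 over the next highest array was 5.25, the second largest of 18193 genes. Fga and Fgg, its neighbours in gene order that encode the alpha and gamma chains, showed the same array on top, with gaps of 2.98 and 3.11. Fga read 61.5 and 273 in the labelled knockout, and 39.9 and 2272 in wild type, and Fgg read 68.0 and 115 in the labelled knockout, and 52.0 and 1114 in wild type. All the chains that make up fibrinogen were therefore above the median level on wild-type replicate 2 and below it on the other arrays.

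**Figure D2:**
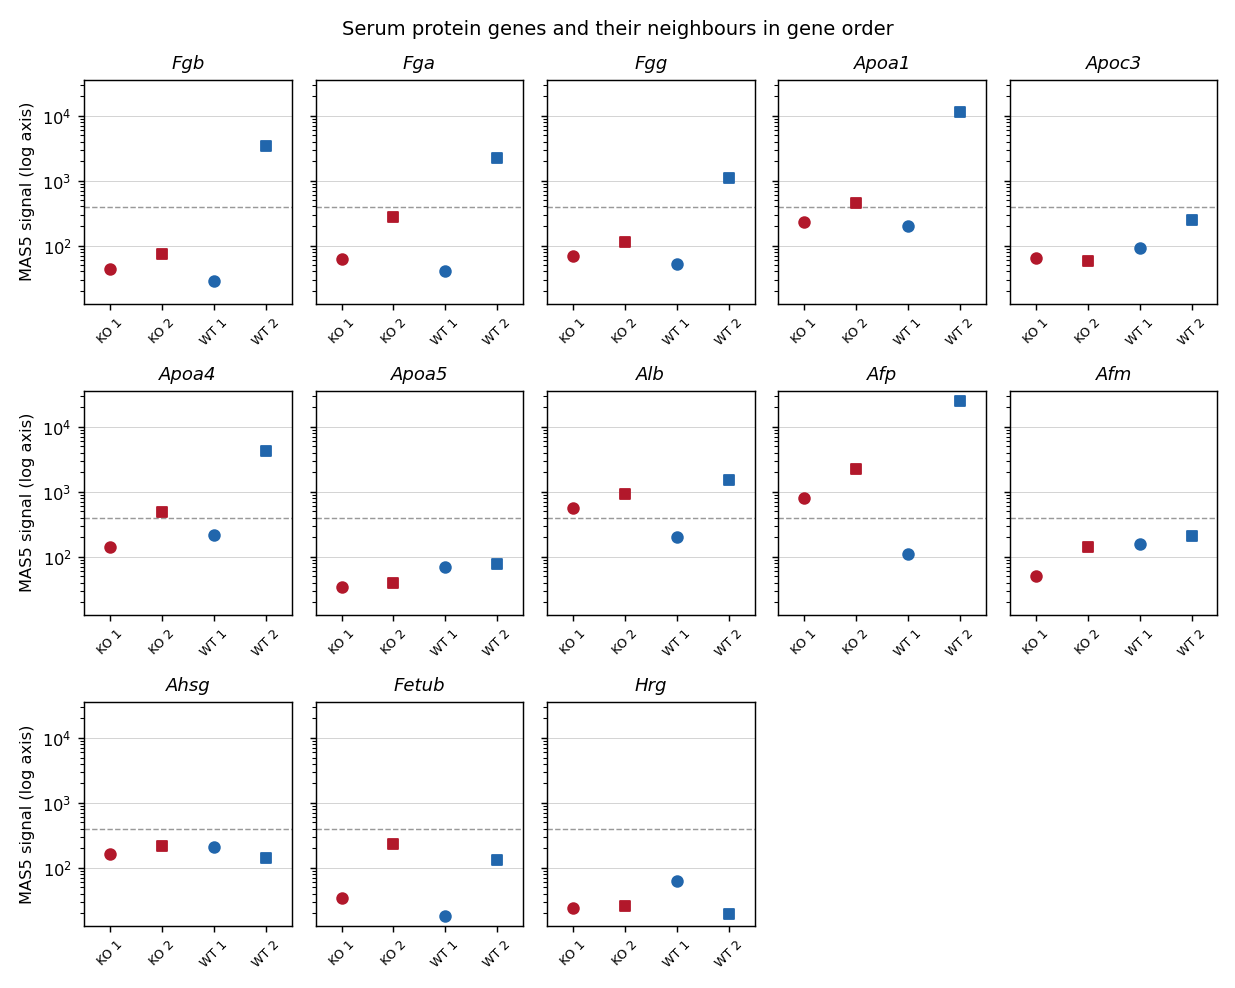
MAS5 signal (log axis) on the 4 arrays for serum protein genes and genes that neighbour them in gene order, labelled knockout (KO) in red and wild type (WT) in blue, circles for replicate 1 and squares for replicate 2; each point is 1 array and the dashed line is the median level, 397. The 3 fibrinogen genes Fgb, Fga and Fgg all peak on wild-type replicate 2 at 1114 or more, whereas Apoa5, Afm and Hrg read at most 208.

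Some neighbours in gene order shared the gap between the wild-type arrays. Of 33 protein-coding genes within 2 places of a member, 30 were measured, and 6 of them were at least 2-fold higher on wild-type replicate 2 than on replicate 1, as were 3.78% of all genes. On labelled knockout replicate 2 as against replicate 1 this held for 5 of the 30, against 4.85% of all genes. Besides Fga, Fgg and Apoc3 the neighbours with the wild-type gap were Fetub, Nr1i3 and Pde6c, chosen for naming after their values were seen, none of which exceeded 235 on any array. Ankrd17 and Cox18, which lie before Alb, differed by less than 2-fold.

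Ttr encodes transthyretin, the carrier of thyroid hormone and of the retinol-binding protein complex, made in liver, yolk sac endoderm and choroid plexus. It read 556 and 27074.5 in the labelled knockout, and 167 and 4683.9 in wild type. It was high on both replicate 2 arrays and low on both replicate 1 arrays, with its peak in the labelled knockout. The spiked controls given above were also higher on the replicate 2 arrays, and their part in the signal was not tested. Its 4 probe sets all peaked on labelled knockout replicate 2, with log2 gaps over labelled knockout replicate 1 of 5.07 to 6.64. Transcripts of the placenta peaked on the same array: of 12 measured trophoblast genes, 11 were highest there, with summed signals of 2959 and 166065 in the labelled knockout and 3331 and 3427 in wild type. Tpbpa, a marker of spongiotrophoblast, read 136 and 37380 in the labelled knockout, and 126 and 374 in wild type. On wild-type replicate 2, where Ttr read 4683.9, the trophoblast sum was near that of replicate 1. Pappa2 made up much of both sums, at 2071 and 1875. Of the 12 genes, 1, Tpbpa, was at least 2-fold over on wild-type replicate 2 as against replicate 1, and 2 were at least 2-fold under. The part of this other tissue in the Ttr signal was not tested.

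Of 5 measured markers of the choroid plexus, another known source of Ttr, 1 was at least 2-fold higher on labelled knockout replicate 2 than on each other array. Clic6, Kcnj13 and Folr1, a chloride channel, a potassium channel and a folate receptor, differed by less than 2-fold between replicates 2 and 1 of either genotype. Otx2, a transcription factor of this epithelium, was dim, at 27.2 and 90.5 in the labelled knockout and 18.6 and 24.2 in wild type. Its highest and lowest arrays were those of Ttr. Kcnj13 was 0.44 and 0.47 higher in log2 on replicate 2 than on replicate 1 of the labelled knockout and of wild type. Kl went the other way in both, at -0.405 and -0.42, and was highest on wild-type replicate 1. In the same comparisons Clic6 differed by -0.598 and 0.215, and Folr1 by -0.025 and 0.105. The part of this tissue in the Ttr signal was not tested.

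Rbp4, the carrier of retinol in serum, is also made in fat and some mesenchyme, and was at or above the median level on all 4 arrays. It read 1389 and 1202 in the labelled knockout, and 1070 and 2309 in wild type. Wild-type replicate 2 was again highest, by 0.73 in log2 over the next array, a far smaller gap than for Afp at 3.44. Ahsg, the fetuin-A gene of hepatocytes that keeps calcium phosphate in solution, read 161 and 219 in the labelled knockout, and 208 and 142 in wild type. It stayed below the median level on all 4 arrays, and wild-type replicate 2 was the lowest of them. Fetub, the neighbouring fetuin gene, read 34.0 and 235 in the labelled knockout, and 18.3 and 130 in wild type.

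No serum protein gene passed the test of labelled knockout against wild type, a limma fit over all genes with genotype as its one term. After Benjamini-Hochberg adjustment 0 of 18193 genes passed a threshold of 0.05 (0%), and the members had adjusted p of 0.886 to 0.98. Before adjustment, 849 genes and 0 members had a limma p under 0.05. The median log2 difference of the 10 genes, labelled knockout minus wild type, was -0.33, with 4 higher and 6 lower, against -0.02 over all genes. Standard errors of the members ran from 0.37 to 2.15, where the median over all genes was 0.30, and 5 members exceeded the 99th percentile of 0.99.

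The largest pooled differences had intervals that crossed 0. Fgb averaged 58.8 ± 21.2 in the labelled knockout and 1712 ± 2380.5 in wild type (SD, n = 2 each), and the fitted log2 difference was -2.41, with a 95% interval of -6.67 to 1.85. Apoa1 averaged 337 ± 155 in the labelled knockout and 5730 ± 7824 in wild type (SD, n = 2 each), and its log2 difference was -2.21, with an interval of -6.08 to 1.67. Ttr averaged 13815 ± 18751 in the labelled knockout and 2426 ± 3194 in wild type (SD, n = 2 each), a difference of 2.09 with an interval of -2.73 to 6.89. Each of these intervals covers several-fold changes in either direction, so the data do not set the genotype difference of these genes to a narrow range.

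Within replicate number 1 and within number 2 the same genes had different signs. Afp differed by 2.69 between labelled knockout and wild type in replicate 1 and by -3.44 in replicate 2. The same turn was seen for Alb (1.40 and -0.75), Apoa1 (0.19 and -4.61), Fgb (0.43 and -5.25), Rbp4 (0.37 and -0.93) and, the other way, Ahsg (-0.34 and 0.57). Apoa4, Apob, Apoa2 and Ttr kept their sign, with Apob at -0.04 and -2.75 and Ttr at 1.64 and 2.53. Labelled knockout replicate 1 was at least 2-fold over wild-type replicate 1 for 3 members, Afp, Alb and Ttr, an order found in 2.75% of all genes. Labelled knockout replicate 2 was at least 2-fold under wild-type replicate 2 for 5 members, against 8.04% of all genes.

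**Figure D3:**
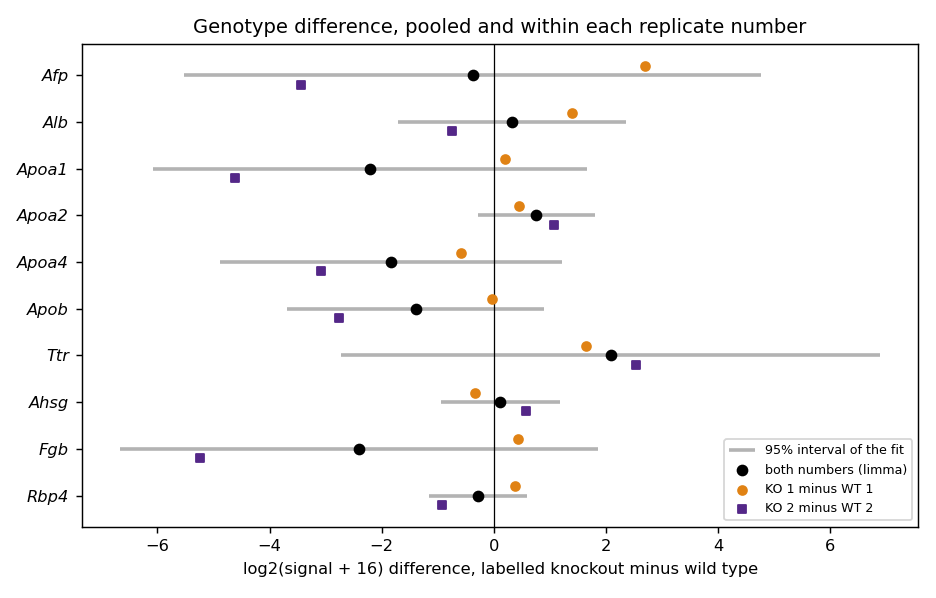
Log2(signal + 16) difference, labelled knockout minus wild type, for each serum protein gene: the black point is the limma estimate over both replicate numbers with its 95% interval as a grey bar, the orange circle is replicate 1 (KO 1 minus WT 1) and the purple square replicate 2 (KO 2 minus WT 2), each a difference of 2 arrays. All 10 intervals cross 0, and for 6 genes the circle and the square lie on opposite sides of 0.

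Single arrays decided the direction of 9 of the 10 differences. Without wild-type replicate 2 the log2 difference of Afp was 3.44, and those of Apoa1, Fgb, Rbp4, Apoa4 and Apob were 0.65, 0.72, 0.27, 0.26 and 0.16, all turned from negative, while that of Ahsg turned to -0.14. Without labelled knockout replicate 2 the difference of Ttr was -0.70, that of Alb -0.02 and that of Ahsg -0.09. Without wild-type replicate 1 Alb had -1.10 and Ttr -0.26, and without labelled knockout replicate 1 Afp had 0.37. Apoa2 stayed positive in all 4 of these fits, at 0.29 to 1.23. No member passed in any of them.

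Within wild type the replicate 2 array was at least 2-fold over replicate 1 for 8 of the 10 genes, all but Apoa2 and Ahsg, where 3.78% of all genes passed that fold. Within the labelled knockout the replicate 2 array was at least 2-fold over replicate 1 for 3 of them, Afp, Apoa4 and Ttr, where 4.85% of all genes did. Afp, Apoa1, Apoa4, Apob and Fgb were at least 2-fold higher on wild-type replicate 2 than on each of the other 3 arrays, as were 1.26% of all genes. Ttr was the one member with this order on labelled knockout replicate 2, as were 1.08% of all genes. These shares describe single arrays, with no replicate check, and the genes were chosen with this pattern known.

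**Figure D4:**
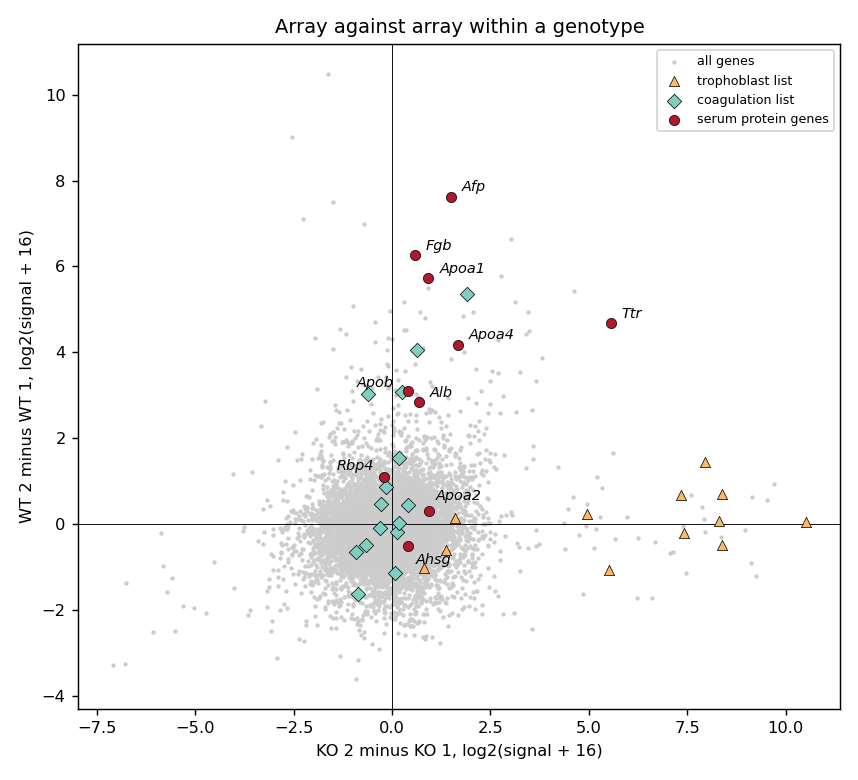
Difference between replicate 2 and replicate 1 in log2(signal + 16), labelled knockout on the horizontal axis and wild type on the vertical axis, for all 18193 genes (grey), the serum protein genes (red circles), a coagulation list (green diamonds) and a trophoblast list (orange triangles). Afp, Fgb, Apoa1 and Apoa4 lie high on the vertical axis at 4.18 to 7.63, most trophoblast genes lie far right, and Ttr lies far along both axes at 5.57 and 4.68.

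Other genes of plasma proteins showed the peak on wild-type replicate 2 in part. Of 60 further genes of apolipoproteins, lipoprotein assembly, coagulation, plasma carriers and uptake receptors, 0 passed the limma test. In the labelled knockout 18 of them were higher and 42 lower, against 8756 and 9415 of all genes. Their differences had a median of -0.29 in log2, against -0.02 over all genes. On wild-type replicate 2 as against replicate 1, 17 of the 60 were at least 2-fold higher and 3 at least 2-fold lower, against 687 and 857 of all 18193 genes. The median gap of the 60 was 0.39, against -0.08 over all genes. Wild-type replicate 2 was highest for 33 of the 60, or 55.0%, and labelled knockout replicate 2 for 11, or 18.3%, against 20.1% and 27.3% of all genes.

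Of 15 coagulation genes, 2 were higher and 13 lower in the labelled knockout, their median being -0.43 in log2, against -0.02 over all genes. On wild-type replicate 2 as against replicate 1, 5 were at least 2-fold over, where 3.78% of all genes were. Besides Fga and Fgg these were Kng1, F2 and Proc, which encode kininogen, prothrombin and protein C. F7 and Hrg were at least 2-fold under in that comparison, at 11.9 and 19.8 against 70.0 and 62.4. Kng1 read 369 and 442 in the labelled knockout, and 435 and 3791 in wild type. Plg and F9, genes of plasminogen and of a clotting factor made in hepatocytes, read at most 16.6 and 8.67 on any array. F2 and Proc, like the other list genes and neighbours described here whose mean lies under the median level, were chosen for naming after their values were seen.

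Of 10 other apolipoprotein genes, 4 were at least 2-fold over on wild-type replicate 2, and of 19 carriers and inhibitors, 7, where 3.78% of all genes were. Apof was at least 2-fold under, at 8.40 against 53.3 on wild-type replicate 1, and 0 of the 19 were. Apom, a carrier of sphingosine phosphate, read 262 and 424 in the labelled knockout, and 240 and 1980 in wild type. Apoc1, which slows lipid uptake from lipoprotein, read 609 and 482 in the labelled knockout, and 475 and 1179 in wild type. Spp2, a secreted phosphoprotein of the cystatin superfamily, read 47.6 and 63.4 in the labelled knockout, and 103 and 1398 in wild type. Hp, haptoglobin, which binds free haemoglobin, read 1437 and 1296 in the labelled knockout, and 1122 and 2557 in wild type. Orm1, an acute-phase carrier, read 113 and 709 in the labelled knockout, and 63.95 and 790.5 in wild type, high on both replicate 2 arrays. Serpina10, Fetub, Itih4 and Serpinf2 were also at least 2-fold over on wild-type replicate 2, with at most 235 on any array. The haem carrier Hpx and the inhibitor gene Ambp were dim, at 123 and 98.3 on wild-type replicate 2. That array exceeded the next highest by only 0.17 and 0.06 in log2.

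No such gap was found among 9 genes of lipoprotein assembly and exchange. None of them differed by at least 2-fold between the wild-type arrays. Of all 18193 genes, 687 were at least 2-fold over and 857 at least 2-fold under there, so 0 of 9 is near that share. The median log2 difference of the 9 between genotypes was -0.07, against -0.02 over all genes. Mttp, which loads lipid onto the product of Apob, read 575 and 632 in the labelled knockout, and 652 and 325 in wild type, so that it was lowest where Apob was highest. Pltp, the phospholipid transfer protein, read 11018 and 13521 in the labelled knockout, and 7666 and 9424 in wild type, without overlap but with an adjusted limma p of 0.886. Lcat, a cholesterol-esterifying enzyme, and Abca1, a lipid exporter, differed between genotypes by -0.01 and -0.48 in log2, and neither passed. Of 7 uptake receptor genes, Tfrc, Fcgrt and Lrp1, receptors for transferrin, for immunoglobulin and albumin, and for lipoprotein remnants, were above the median level. Cubn alone of the 7 was at least 2-fold over on wild-type replicate 2, where 3.78% of all genes were.

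Markers of the yolk sac and of hepatocytes were mostly dim. Of 10 yolk sac endoderm genes, 2 passed the median level by their mean, where 11694 of all 18193 genes did. The summed signal of the 10 was 7853 and 6028 in the labelled knockout and 7351 and 6440 in wild type. Cubn, the receptor cubilin of yolk sac endoderm, read 140 and 140 in the labelled knockout, and 127 and 309 in wild type, while its partner Amn read at most 131. Gata6 and Dab2, a transcription factor and an endocytic adaptor, are found in several other tissues, and neither was highest on wild-type replicate 2. Gata4, with the widest range of the list, read 1248 and 2.75 in the labelled knockout, and 576 and 87.8 in wild type. Wild-type replicate 2 was highest for 1 of the 10 genes, Cubn. Rhox5, a homeobox gene of yolk sac endoderm and trophoblast, read 207 and 1036 in the labelled knockout, and 138 and 400 in wild type, with its highest and lowest arrays those of Ttr. Of 12 hepatocyte enzyme genes, 2 passed, Fbp1 and Arg1, and the list had sums of 2707 and 2611 in the labelled knockout and 2031 and 3417 in wild type. Wild-type replicate 2 was highest for 2 of the 12, Pck1 and Arg1, or 16.7%, against the same 20.1% of all genes. The median gap of the list between wild-type replicates 2 and 1 was -0.005 in log2. Pck1, the gluconeogenic enzyme that yolk sac, liver, kidney and fat use, read 133 and 118 in the labelled knockout, and 83.5 and 1056 in wild type. Arg1, an enzyme of the urea cycle, was also highest on wild-type replicate 2, at 624 and 548 in the labelled knockout and 666 and 1181 in wild type. Fbp1, another gluconeogenic enzyme, read 1110 and 1164 in the labelled knockout, and 646 and 610 in wild type, without overlap but with an adjusted limma p of 0.886. Cps1 read 390 and 202 in the labelled knockout, and 118 and 89.3 in wild type, and G6pc read at most 24.2. Tat read 29.2 and 150 in the labelled knockout, and 75.9 and 20.8 in wild type, and Hpd and Cyp2e1 read at most 53.5 and 46.9. The part of either tissue in the serum protein signals was not tested.

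Transcription factors that activate or repress these genes in liver were counted together. Of 12 measured, 6 were higher and 6 lower in the labelled knockout, their median was -0.04 in log2, and 0 passed the limma test. Hnf4a, a nuclear receptor of liver and yolk sac endoderm, was dim at 152 and 171 in the labelled knockout, and 33.5 and 324 in wild type. Its highest and lowest arrays were those of Afp. Cebpa, a factor of hepatocytes, fat and lung epithelium, read 3202 and 4733 in the labelled knockout, and 2684 and 5541 in wild type. Zbtb20, a repressor of Afp in the mouse liver after birth, read 7128 and 4668 in the labelled knockout, and 7231 and 8363 in wild type, and Zhx2, another regulator of Afp silencing, read 1808 to 2416 over the 4 arrays. Foxa3 and Prox1 read 558 to 1015 and 2555 to 5361, with wild-type replicate 2 between the extremes for both.

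The embryonic globins Hbb-y, Hba-x and Hbb-bh1, made by primitive red cells of yolk sac origin, were all highest on labelled knockout replicate 2 and lowest on wild-type replicate 2. Ahsg had the same highest and lowest arrays, Ttr and Apoa2 had the same highest array, and Afp peaked on wild-type replicate 2. Hbb-y read 7146 and 19305 in the labelled knockout, and 9863 and 4603 in wild type. Of 7 definitive erythroid genes, 6 were highest on labelled knockout replicate 2, and Alas2 and Slc4a1 differed by less than 2-fold over the arrays. Of 6 intestinal epithelium genes, 0 passed the median level by their mean, and their sums were 860 and 1253 in the labelled knockout and 635 and 755 in wild type. Cdx2, a factor of gut and trophoblast, was above that level on labelled knockout replicate 2, at 732. Muc2, Fabp2, Cdx1 and Vil1 were 0.80, 0.81, 0.60 and 0.03 higher in log2 on wild-type replicate 2 than on replicate 1. Cdh17 and Cdx2 went the other way, at -0.23 and -0.27. Muc2 was highest on labelled knockout replicate 1, at 262, against 202 on wild-type replicate 2. The part of either tissue in the member signals was not tested.

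Genes outside the members with a mean at or above the median level were ranked by likeness to Afp over the 4 arrays. The 5 nearest were Prap1, Adipoq, Lor, Krt1 and Pip, by root mean square distance between centred log2 values. These distances were 0.92, 1.07, 1.32, 1.33 and 1.34, and rest on 4 arrays. Genes with a dimmer mean, Fga among them, were not ranked, while the members were given a distance at any level. Prap1, a secreted proline-rich protein, read 210 and 1813.5 in the labelled knockout, and 194 and 20926 in wild type. Adipoq, the fat hormone adiponectin, read 683 and 2421 in the labelled knockout, and 160 and 5065 in wild type. Lor and Krt1 belong to cornified epidermis, and Pip to salivary and other glands, and all of them read highest on wild-type replicate 2, at 6082, 8110 and 9954. Their gaps over the next highest array were 0.65, 1.35 and 2.81 in log2. That array was labelled knockout replicate 2 for Lor and Krt1, at 3877 and 3179.5, and labelled knockout replicate 1 for Pip, at 1408. Among the members, Apoa1 and Fgb lay nearest to Afp, at 1.15 and 1.17, and Ahsg lay farthest, at 2.91.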

How the data were processed

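The deposited values are 1 intensity per probe set and array on a linear scale, made by the authors with MAS5 per the submitters' processing notes; no version or setting is given in the sources used here. The mean after trimming 2% at each end was 1500 on every array. MAS5 is noisy for dim probe sets. Groups and replicate numbers came from sample titles. Of 45101 probe sets, 34945 had exactly 1 gene in the platform annotation, 932 several and 9160 none, and 64 were controls. Symbols were updated by gene identifier through RefSeq (GRCm38.p6), matching 34741.

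Log2(signal + 16) was tested with limma 3.58.1 (R 4.3.3), with an intensity trend and Benjamini-Hochberg adjustment over all 18193 genes. Scripts were tested on simulated data. Members, lists and tests were chosen with earlier results of these data known. Named genes are the members, Cacna1h and up to 4 genes per list with the largest range among those at or above the median level. The 5 genes most like Afp among those at or above that level are named as well. Zhx2, dimmer list genes and neighbours in gene order were named after their values were seen. Figures used matplotlib 3.10.9. Listed genes without a single-gene probe set were not analysed here.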

Additional observations from a re-analysis of the deposited data

How the results depend on the processing

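In all 13 alternatives run (pseudocounts of 1 and 64, a filter at the median level, quantile normalization, centring, no intensity trend, the mean of all probe sets, probe sets ending in x_at or s_at left out, a replicate block, and each array left out), 0 members and 0 of the 60 further plasma genes passed. The filter left 6 members. Over all genes 0 passed, except that leaving out 1 array gave 0 to 136 (136 without labelled knockout replicate 1 and 3 without labelled knockout replicate 2). The members' median log2 difference was -0.33, but -0.10 with centring and -0.20 with quantile normalization, and -2.03 to 0.69 with 1 array left out. Those ranges were -4.19 to 3.44 for Afp, -1.10 to 1.75 for Alb, -5.07 to 0.65 for Apoa1, -3.92 to 0.26 for Apoa4, -2.95 to 0.16 for Apob, -0.70 to 4.87 for Ttr, -0.14 to 0.37 for Ahsg, -5.54 to 0.72 for Fgb and -0.83 to 0.27 for Rbp4. In the other alternatives all 86 member differences kept their sign. The median of the 60 further genes was -0.29, but -0.04 with quantile normalization, -0.06 with centring and -0.07 with the filter. With 1 array left out it ran from -0.41 to -0.05. The 3 members at least 2-fold higher on labelled knockout replicate 2 than on replicate 1 became 4 with the mean of all probe sets, 5 with quantile normalization and 6 with centring, which moved the median of all genes to 0.21, against -0.02; the 8 members between the wild-type arrays stayed 8. With the replicate block the members' median stayed -0.33 and 0 passed. Same-numbered arrays deviated together (r = 0.15 over all genes and 0.32 over those at or above the median level, which are not independent), and whether the numbers mark a batch was not tested.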
